A study of Mus musculus with 3 samples.

Results

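Nuclei of the E14.5 mouse forelimb were gated on the accessibility of 7 tendon loci, Tnmd, Thbs4, Kera, Mkx, Cilp, Fmod and C1qtnf3. For each nucleus, the counts in peaks overlapping the body of these genes or the 2000 bp upstream were divided by its total counts, and the highest-scoring 10% of nuclei with 8000 or more counts were taken. This gave 1067 gated nuclei of 10666 that passed the depth minimum, out of 20023 in the E14.5 library and 42365 in the series. The remaining 9599 nuclei passing depth served as the comparison. Because the gated nuclei were chosen by their counts at these loci, their levels there are a description and not a finding, and the comparisons below rest on loci that the gate did not use.

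The study profiled open chromatin in single nuclei of the Hic1 lineage, mesenchymal progenitors (MPs) marked by a red fluorescent reporter, as the limb forms its connective tissues. All embryos were C57BL/6J and carried Hic1CreERT2/CreERT2;Rosa26LSLtdTomato/tdTomato, so the Cre was knocked into both copies of Hic1, and only cells in which Hic1 was active around the time of tamoxifen, and their descendants, were labelled. Dams were given 7.5 mg tamoxifen by gavage at embryonic day (E) 10, and tdTomato+ cells without CD45, CD117, CD31, CD11b, F4/80 or Ter119 were sorted. There was 1 library each from E12.5 and E14.5 forelimbs and from an E16.5 segment around the elbow (distal stylopod to proximal zeugopod), with embryos of both sexes used without distinction and limbs pooled across a litter. Dispase was used to dissociate tissue at E12.5, and Collagenase A, Pronase and DNase at the later stages. Each stage had a single library, so replicate error could not be estimated and no test was made. Intervals are exact 95% limits that cover counting error only, and they were computed on fragment equivalents, the deposited cut-site counts halved and rounded up.

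Tendon cells arise from Scx-positive progenitors, in which the bHLH factor Scx and the homeobox factor Mkx are known to drive a matrix programme. Tnmd, a membrane glycoprotein, marks maturing tenocytes, while Kera and Fmod are small leucine-rich proteoglycans of collagen fibrils. Thbs4 is a thrombospondin of tendon and muscle attachments, and Cilp is a matrix protein of cartilage and dense connective tissue that binds TGF-beta. C1qtnf3 is a secreted C1q-like protein, which the study names among its markers of fascia. It is counted with the tendon loci here because the gate used it. TGF-beta signalling maintains the tendon fate and FGF signalling acts at the borders with muscle and cartilage.

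The gate drew on 28 peaks called in the E14.5 library. The sequences shown first are from the gate peaks that were also more open in nuclei gated on the other loci, as described below. They are on the plus strand of GRCm38, with capitals marking CANNTG, the E-box core recognised by bHLH factors. The Tnmd promoter peak (514 bp, chrX:133850804-133851317) is shown upstream of the annotated start, and a 117 bp peak within the second Tnmd intron is shown whole. The Kera peak (677 bp) reached from the first intron into the second exon and its intronic centre is shown, and of the Cilp promoter peak (970 bp) the 300 bases before the start are given.
Tnmd promoter peak, chrX:133850804-133850979: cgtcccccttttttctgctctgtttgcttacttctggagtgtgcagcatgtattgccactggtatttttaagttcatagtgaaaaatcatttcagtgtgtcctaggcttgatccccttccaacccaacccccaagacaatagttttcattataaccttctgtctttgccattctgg
Tnmd intron peak, chrX:133857764-133857880: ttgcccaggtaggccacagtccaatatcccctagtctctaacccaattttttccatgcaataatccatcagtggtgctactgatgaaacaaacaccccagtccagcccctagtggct
Kera peak, chr10:97608390-97608689: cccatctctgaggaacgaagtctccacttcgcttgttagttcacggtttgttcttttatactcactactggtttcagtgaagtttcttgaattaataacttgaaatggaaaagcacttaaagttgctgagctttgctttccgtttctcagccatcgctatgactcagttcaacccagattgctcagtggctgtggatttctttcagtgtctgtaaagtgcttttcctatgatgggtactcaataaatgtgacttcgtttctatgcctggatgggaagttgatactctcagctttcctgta
Cilp promoter peak, chr9:65264880-65265179: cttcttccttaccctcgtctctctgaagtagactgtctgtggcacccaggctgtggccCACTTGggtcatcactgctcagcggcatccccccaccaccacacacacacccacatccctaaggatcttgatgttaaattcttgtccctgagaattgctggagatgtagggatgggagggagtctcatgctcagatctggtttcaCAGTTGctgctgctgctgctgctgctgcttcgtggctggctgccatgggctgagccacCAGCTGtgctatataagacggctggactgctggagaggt
The Cilp stretch held 3 CANNTG letters and the other stretches held 0.

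Gated nuclei had a median of 8 cut sites at the gate loci (range 4 to 24), equal to 4 fragment equivalents, against a median of 2 cut sites (range 0 to 26) in other nuclei. Their median score was 5.81 per 10000 counts, against 1.69. At the threshold the last gated nucleus scored 4.711 per 10000 counts, from 7 cut sites among 14859 counts, and the first nucleus outside scored 4.710, from 6 among 12739. Within 10% of the threshold score lay 717 nuclei, so the gate cut through a continuous range. In 12.4% of gated nuclei all of the counts came from 1 locus, in 37.8% from 2 and in 34.2% from 3, and no nucleus had a count at all 7. The gate thus rested on a handful of fragments per nucleus.

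**Figure D1:**
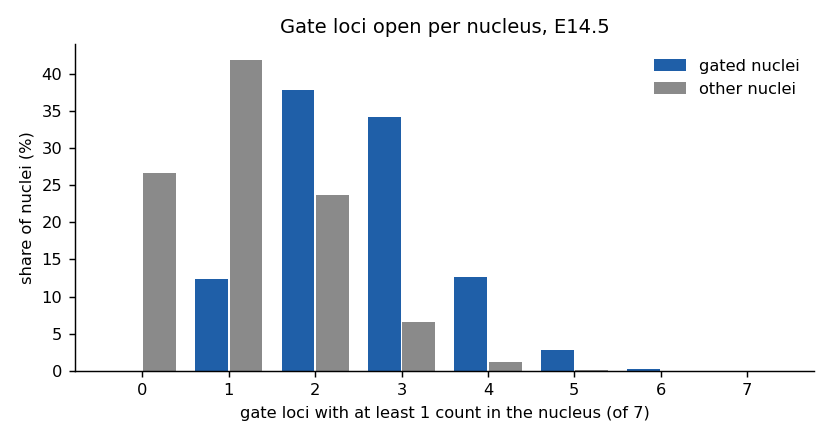
Share of nuclei (%) by the number of gate loci with at least 1 count, for the 1067 gated nuclei (blue) and the 9599 other nuclei passing depth (grey) at E14.5. Gated nuclei peaked at 2 loci and other nuclei at 1, as the gate itself selected.

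The loci weighed very unequally in the gate. Mkx supplied 43.6% of all gate fragment equivalents, and 63.9% of these came from its promoter peak alone. Thbs4 followed with 19.3%, Fmod with 14.8% and C1qtnf3 with 9.46%, while Cilp (5.07%), Kera (4.75%) and Tnmd (3.09%) were small. Accordingly 83.7% of gated nuclei had a count at Mkx and 12.3% at Tnmd, the classical marker of maturing tenocytes. Each locus stood 3.02-fold (Fmod) to 3.93-fold (Kera) higher in gated than in other nuclei, which the rule fixed.

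When nuclei were thinned to a common 4000 fragment equivalents, the 7 loci summed to a mean of 0.871 fragments per nucleus, with 43.5% of nuclei at 0. The variance over the mean was 1.09, where equal rates in all nuclei and counting alone give 1. A list of cartilage loci treated alike had a mean of 4.02 and a variance over the mean of 1.67. A list of ubiquitous genes had a mean of 2.01 and a variance over the mean of 1.118. A list of dermal fibrogenic loci lay between the ubiquitous and cartilage lists in both. The variance over the mean was thus lowest for the tendon loci, but their mean was also lower than that of each of these lists. Where rates differ between nuclei, this measure rises with the mean. It therefore cannot rank how much the tendon loci and the other lists varied between nuclei.

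Depth and promoter share differed between the groups. Gated nuclei had a median of 11954 counts (range 8001 to 36582), against 13606 (8000 to 58332), and a median of 53.8% of counts in promoters, against 55.3%. Counts with other nuclei weighted to the same joint distribution of depth and promoter share are given below. Of the 20023 barcodes at E14.5, 608 also occurred in another library, among them 35 of gated nuclei. Without nuclei of shared barcodes, 50 genes were higher past the fold used below and 97 lower, against 54 and 108.

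To ask whether the gated nuclei shared accessibility at tendon loci beyond the counts that chose them, each locus was left out in turn, the gate was redrawn on the other 6, and the left-out locus was measured as fragment equivalents scaled to 1000000 outside the gate loci (CPM). Tnmd and Kera were higher in nuclei gated on the other loci, while the intervals of the other 5 loci included 1. With the same nuclei thinned to 4000 fragment equivalents, Kera stood at 1.36 and Tnmd at 1.44. In the fit used to compare stages, which thinned 11153 nuclei of at least 4000 fragment equivalents in place of the 10666, Kera stood at 1.05 (0.756 to 1.42) and Tnmd at 1.34 (0.929 to 1.87), and both intervals included 1. Tnmd stood at 9.91 CPM in gated and 6.47 in other nuclei, a ratio of 1.53 (1.18 to 1.96). Kera stood at 14.8 and 9.98 CPM, a ratio of 1.49 (1.21 to 1.82). Both intervals lay above 1. Cilp had a ratio of 1.197 (0.960 to 1.48), with an interval that included 1.

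Thbs4 had a left-out ratio of 1.03 (0.917 to 1.16), Fmod of 0.996 (0.868 to 1.14) and C1qtnf3 of 0.975 (0.819 to 1.15). Mkx, the locus with the most fragments, had a ratio of 0.946 (0.873 to 1.02), at 90.6 CPM in gated and 95.8 in other nuclei. The upper limit of 1.02 at Mkx was below the lower limits at Tnmd and Kera, but these limits describe different sets of nuclei. The gate without Mkx kept 54.8% of the nuclei of the 7-locus gate, against 94.1% without Tnmd and 90.3% without Kera. Thinned to 4000 fragment equivalents, 3.56% (2.53 to 4.86) of nuclei gated on the other loci had a Tnmd fragment, against 2.30% (2.01 to 2.62) of other nuclei. For Mkx these shares were 27.5% (24.8 to 30.2) and 31.1% (30.2 to 32.0).

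**Figure D2:**
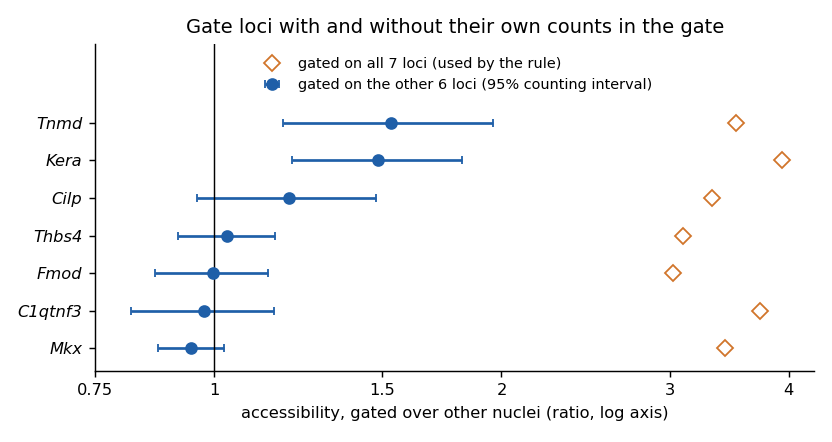
Ratio of accessibility in gated over other nuclei at each gate locus, on a log axis. Filled circles are loci left out of the gate, with exact 95% counting intervals, and open diamonds are the same loci when the gate used them. Tnmd (1.53) and Kera (1.49) have intervals above 1, and all diamonds lie above 3.

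Left-out ratios were also taken for single peaks, and no peak was tested against another of its locus. The Tnmd promoter peak, shown above, had a left-out ratio of 1.66 (1.18 to 2.29), and the 117 bp Tnmd intron peak one of 2.64 (1.23 to 5.21) on 54 fragment equivalents in all. The other Tnmd intron peak stood at 1.06 (0.611 to 1.72). The Kera peak had a ratio of 1.70 (1.32 to 2.18), while the Kera promoter peak had 1.17 (0.798 to 1.66). The Cilp promoter peak stood at 1.33 (1.02 to 1.72) and the Cilp intron peak at 0.963 (0.634 to 1.41). The Mkx promoter peak, 5402 bp wide and with 27.8% of all gate fragments, stood at 0.941 (0.8504 to 1.04).

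Outside the gate, 14472 protein-coding genes more than 100 kb from a gate locus had at least 1000 fragment equivalents. Of these, 54 (0.373%) were at least 25% higher in gated than in other nuclei and 108 (0.746%) at least 20% lower, the fold used throughout. Centred on the median ratio, 87 were higher and 56 lower. The median ratio was 0.979 and the 5th and 95th percentiles were 0.866 and 1.11. No gene reached 1.5-fold upwards. Gated and other nuclei thus had nearly the same accessibility over gene bodies and promoters. With the other nuclei weighted to the depth and promoter share of the gated nuclei, 29 genes were higher and 62 lower.

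Among the tendon regulators, none of 12 genes was past the fold in either direction, beside 0.373% of all genes compared upwards and 0.746% downwards. At such shares, finding none in a short list says little. The list had a median log2 ratio of -0.02, beside -0.03 for all genes compared. Scx, which specifies tendon progenitors, stood at 25.2 CPM in gated and 25.3 in other nuclei, a ratio of 0.997 (0.853 to 1.16). Eya1, a transcriptional cofactor and phosphatase, had the highest ratio of the list, 1.13 (1.02 to 1.24), at 63.8 and 56.6 CPM. Its relative Eya2 followed at 1.07 (1.003 to 1.15), and the homeobox genes Meox2 and Meox1 stood at 1.07 (0.983 to 1.17) and 1.05 (0.949 to 1.16). Six2 stood at 0.976 and Nfatc4 at 0.985, each with an interval that included 1. The TGF-beta mediator Smad3 stood at 0.970 (0.918 to 1.03), and Egr1 and Egr2, zinc finger factors tied to tendon collagen genes, at 0.966 (0.901 to 1.04) and 0.973 (0.888 to 1.06).

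Of the tendon matrix and effector genes, 24 of 27 were measured. Of these, 1 was past the fold upwards and none downwards, beside 0.373% and 0.746% of all genes compared. The median log2 ratio was 0.05. Col22a1, a collagen of myotendinous junctions, was the gene past the fold, with 26.0 CPM in gated and 19.7 in other nuclei, a ratio of 1.32 (1.13 to 1.54). Col22a1 was below the fold, at 1.23, both with other nuclei weighted to the depth and promoter share of the gated nuclei and with a depth minimum of 12000. After thinning it stood at 1.44 but under the fragment minimum. In the thinned fit used to compare stages it stood at 1.17 (0.954 to 1.43), below the fold and with an interval that included 1. Outside its promoter Col22a1 had a ratio of 1.39 (1.18 to 1.62), and at its promoter, with 207 fragment equivalents, 0.862. Next came Col12a1, a fibril-associated collagen, at 1.14 (1.07 to 1.2), and Col5a2, a fibrillar collagen, at 1.11 (1.02 to 1.21). Tnc stood at 1.08 (lower limit just above 1), Col1a1 at 1.08 (1.01 to 1.16), Abi3bp at 1.08 (0.996 to 1.16) and Col14a1 at 1.07 (upper limit 1.15).

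The remaining matrix genes stood closer to 1. Thbs2 and Chodl each had 1.06, Scube2 1.05, Htra3 and Col13a1 1.04, Aspn and Col3a1 1.03, Col6a1 1.02 and Lox 1.01. Below 1 were Htra1 (0.992), Col5a1 (0.982), Col6a3 (0.977), Tgfbi (0.974), Ogn (0.958), Col1a2 (0.935), Col6a2 (0.926) and Comp (0.901). For all of these the interval included 1. Peaks outside promoters gave Thbs2 1.46 (1.23 to 1.72), while its promoter gave 0.888. Bgn and Ptx4 had fewer than 1000 fragment equivalents, with ratios of 1.27 (0.994 to 1.59) and 1.04 (0.801 to 1.33), and Dcn, at 0.981, lies within 100 kb of Kera.

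Of the TGF-beta pathway, none of 14 genes was past the fold, beside 0.373% of all genes compared upwards and 0.746% downwards. The median log2 ratio was 0.02. Ltbp2, a protein of elastic microfibrils listed here for its family name, came closest, with 110.0 CPM in gated and 90.4 in other nuclei, a ratio of 1.22 (1.13 to 1.31). Ltbp1 stood at 1.08 (1.03 to 1.13) and the common mediator Smad4 at 1.11 (upper limit 1.23). The ligands Tgfb3 (1.05), Tgfb2 (1.04) and Tgfb1 (0.951) and the receptors Tgfbr2 (1.04), Tgfbr3 (0.999) and Tgfbr1 (0.924) had intervals that included 1, as did Tgif1 (1.03), Ltbp3 (0.989), Skil (0.973), Smad2 (0.968) and Smad7 (0.960).

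Of the FGF pathway, none of 11 genes was past the fold, beside 0.373% of all genes compared upwards and 0.746% downwards. The median log2 ratio was -0.10, beside -0.03 for all genes compared and -0.10 for a list of ubiquitous genes. The shift was thus not particular to FGF genes. Fgfr3, a receptor of growth plate cartilage, was lowest at 0.857 (0.765 to 0.957), with 46.5 CPM in gated and 54.2 in other nuclei, and the FGF-responsive factor Etv5 stood at 0.891 (0.828 to 0.958). The other members ranged from Spry1 (0.903) over Fgf8 (0.919), Etv4 (0.925), Fgf18 (0.935), Spry2 (0.963), Dusp6 (0.995) and Fgfr1 (0.999) to Spry4 (1.001). The value of Fgfr2, 0.990, covers a gene model of 2960900 bp with 174 peaks that also spans other genes.

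The tenogenic label was set against loci of other cell types, and no listed gene of another type with at least 1000 fragment equivalents was past the fold in either direction. Of all genes compared, 0.373% were past it upwards and 0.746% downwards, so this too says little. Under that minimum, the cartilage matrix gene Matn1 stood at 1.398 (1.12 to 1.73) on 828 fragment equivalents, the joint gene Prg4 at 1.39 (0.925 to 2.03) on 260 and the endothelial gene Cdh5 at 0.716 (0.302 to 1.46) on 123. The cartilage list had a median ratio of 1.04, the same as the tendon matrix list. Summed over the list, the ratio was 1.06 (1.04 to 1.09) for cartilage and 1.04 (1.02 to 1.06) for tendon matrix genes. In the cartilage list Sox6, a Sox factor of cartilage and other lineages, was highest at 1.14 (1.08 to 1.2). The proteoglycan Acan was lowest at 0.909 (0.768 to 1.07). Col11a1 stood at 1.11 (1.03 to 1.2) and Sox5 at 1.06. In the joint list Dcx had 1.13 and Barx1 0.912, in the bone list Sp7 1.02 and Alpl 0.974, in the fibrogenic list Fap 1.13 and Pi16 0.834, and in the dermal fibrogenic list Nkd2 1.096 and Rspo1 0.911. The MP list ran from Hmga2 (1.04) to Id3 (0.890), the pericyte list from Abcc9 (1.08) to Rgs5 (0.851) and the perineural list from Cldn1 (1.07) to Itgb4 (0.831).

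Loci of cells that the sort should have removed, or that lie outside the lineage, were summed by list. The ratio of sums was 0.905 (0.830 to 0.985) for Schwann and 1.09 (1.002 to 1.19) for epithelial genes, with intervals that excluded 1. For myogenic (0.929), endothelial (0.942) and blood genes (1.01) the interval included 1. The same ratio was 1.004 for tendon regulators and 1.04 for tendon matrix genes. Summed levels were 75.3 CPM in gated and 81.1 in other nuclei for 3 myogenic genes (Msc 0.989, Pax3 0.913), 156.6 and 166.2 for 5 endothelial genes (Pecam1 1.04, Tek 0.802), 38.6 and 38.03 for 2 blood genes (Ptprc 1.02, Spi1 1.01) and 78.7 and 86.9 for 3 Schwann genes (Erbb3 0.992). The 3 epithelial genes summed to 81.1 and 74.3 CPM, with Trp63 at 1.21 (1.05 to 1.39) and Epcam at 0.956. Gata1, Csf1r, Tyrobp, Myf5, Krt5 and Emcn had no peak at E14.5. Limb position genes ran from Hoxd10 (1.196) to Tbx5 (0.9501), and ubiquitous genes from Eef1a1 (1.02) to Actb (0.863). Since Scx and most other tendon loci outside the gate were about as open in the comparison nuclei, and Mkx when left out, the data bear out the tenogenic label only in part, and the nuclei are called gated nuclei here.

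**Figure D3:**
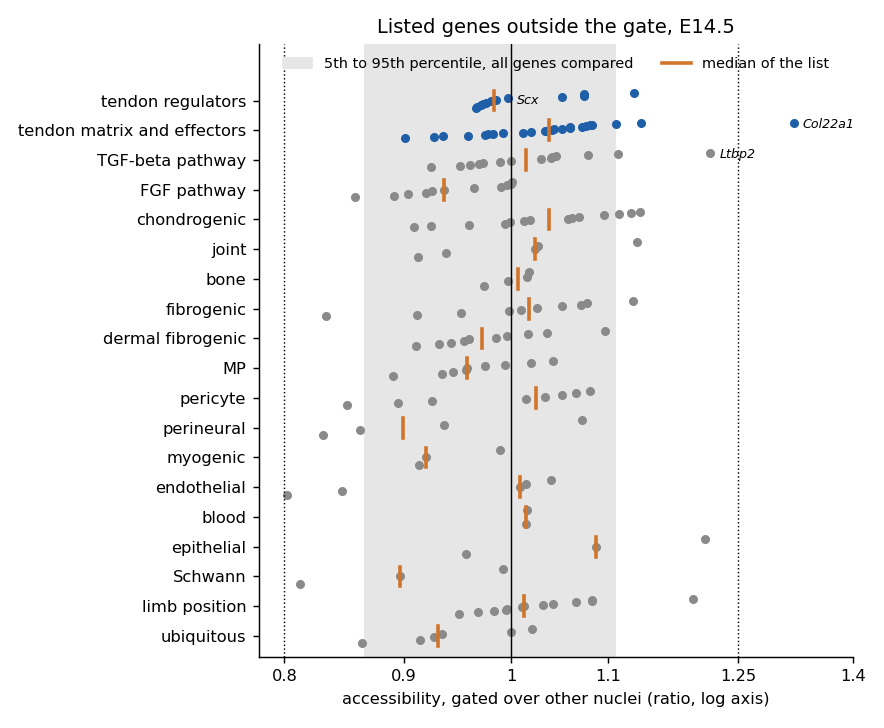
Ratio of accessibility in gated over other nuclei for each listed gene measured outside the gate, on a log axis, with tendon lists in blue. Orange bars are list medians, the grey band spans the 5th to 95th percentile of all 14472 genes compared (0.866 to 1.11), and dotted lines mark the fold up and down. Col22a1 (1.32) is the single listed gene past a dotted line, and Scx lies at 0.997.

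Outside the lists, the 10 highest ratios included those of Plcxd3 (1.48), Abca13 (1.44), Oit3 (1.44), Fgl2 (1.44), Piwil4 (1.43), Spock3 (1.38), Rgs13 (1.36), Mettl21e (1.36) and Mrpl35 (1.36). Plcxd3, a phospholipase-like gene, stood at 31.6 CPM in gated and 21.3 in other nuclei, with an interval of 1.29 to 1.70. Spock3, which encodes a testican proteoglycan, had a ratio of 1.91 (1.57 to 2.31) outside its promoters and 1.14 at them. The 10 lowest were Ccz1 (0.650), Hcn2 (0.676), B3gnt3 (0.710), Npm3 (0.710), Coq5 (0.711), Mall (0.718), Esrp1 (0.720), Ubxn1 (0.727), Hoxb2 (0.728) and Fbxo16 (0.729). These genes were taken for their extreme values and carried few fragments, between 1008 (B3gnt3) and 2850 (Ubxn1) in all, beside a median of 3895.5 over genes compared.

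Larger ratios were found at single distal regions, which carry fewer fragments than genes. Of 22782 peaks outside promoters, more than 100 kb from a gate gene and with at least 500 fragment equivalents, 387 (1.70%) were at or above 1.5-fold in gated nuclei and 161 (0.707%) at or below 1/1.5-fold. The highest was a region in an intron of Egfr (chr11:16788330-16789244), with 15.0 CPM in gated and 6.63 in other nuclei, a ratio of 2.27 (1.83 to 2.79). An intergenic region 59968 bp from the start of Spry2 (chr14:105956061-105957515) stood at 14.4 and 6.38 CPM, a ratio of 2.25 (1.81 to 2.78). A region on chromosome 8 whose nearest start, that of Efnb2, is 1219368 bp away (chr8:7441508-7442242) stood at 12.9 and 5.96 CPM, a ratio of 2.16 (1.71 to 2.70). The central 300 bases of these regions, which carried the largest differences outside the gate, follow on the plus strand with CANNTG in capitals.
Egfr intron region, chr11:16788638-16788937: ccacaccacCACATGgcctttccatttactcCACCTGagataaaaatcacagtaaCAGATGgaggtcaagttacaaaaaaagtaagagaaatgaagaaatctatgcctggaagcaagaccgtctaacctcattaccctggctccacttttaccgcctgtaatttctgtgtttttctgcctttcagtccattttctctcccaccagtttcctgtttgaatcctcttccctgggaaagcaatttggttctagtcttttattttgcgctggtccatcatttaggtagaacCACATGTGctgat
Spry2 distal region, chr14:105956639-105956938: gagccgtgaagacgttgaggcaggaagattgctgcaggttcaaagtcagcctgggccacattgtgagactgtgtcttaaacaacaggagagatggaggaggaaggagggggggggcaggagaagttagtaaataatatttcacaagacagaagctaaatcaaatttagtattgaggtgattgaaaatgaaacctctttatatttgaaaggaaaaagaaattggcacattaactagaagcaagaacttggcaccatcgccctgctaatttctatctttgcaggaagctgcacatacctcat
Efnb2 distal region, chr8:7441726-7442025: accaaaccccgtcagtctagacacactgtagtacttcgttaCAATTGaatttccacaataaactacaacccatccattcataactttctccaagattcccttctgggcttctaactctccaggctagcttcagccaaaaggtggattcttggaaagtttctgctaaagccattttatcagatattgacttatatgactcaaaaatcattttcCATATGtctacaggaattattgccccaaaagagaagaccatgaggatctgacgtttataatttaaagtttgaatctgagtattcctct
The Egfr stretch held 5 CANNTG matches, the Efnb2 stretch 2 and the Spry2 stretch 0.

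Other regions of the 10 highest lay in introns of Ppp2r2b (2.14), Spock3 (2.13), Cdh2 (2.08) and Fam155a (2.01), and in intergenic DNA nearest Wnt7b (2.11) and Tshz1 (2.02). Cdh2 encodes N-cadherin, a cell adhesion molecule of condensing mesenchyme. The intron region of Spock3 (chr8:62969777-62970707) stood at 14.5 CPM in gated and 6.79 in other nuclei. All 10 intervals lay above 1.5, but the regions were picked as the largest of 22782.

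To see where the gated nuclei sat among all nuclei, the 10666 nuclei were arranged by latent semantic indexing of peaks more than 100 kb from every gate and listed gene. Among the 20 nearest neighbours of a gated nucleus, 13.5% were gated, against 10.2% for other nuclei, a ratio of 1.32. With k-means at 7 clusters, cluster 1 (3950 nuclei) held the largest share of gated nuclei, 12.1% (11.1 to 13.2), and the other clusters ranged from 7.40% to 9.92%. The main setting was 7 clusters and 10 was an alternative. At 10 clusters the gated nuclei gathered in cluster 5, where they made up 215 of 998 nuclei, 21.5% (19.0 to 24.2). The comparisons below use this cluster of the alternative setting, picked by its share of gated nuclei over both settings. In the other clusters they made up 6.94% to 9.82%. Cluster 5 held 20.2% of gated nuclei, so most of them lay elsewhere.

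**Figure D4:**
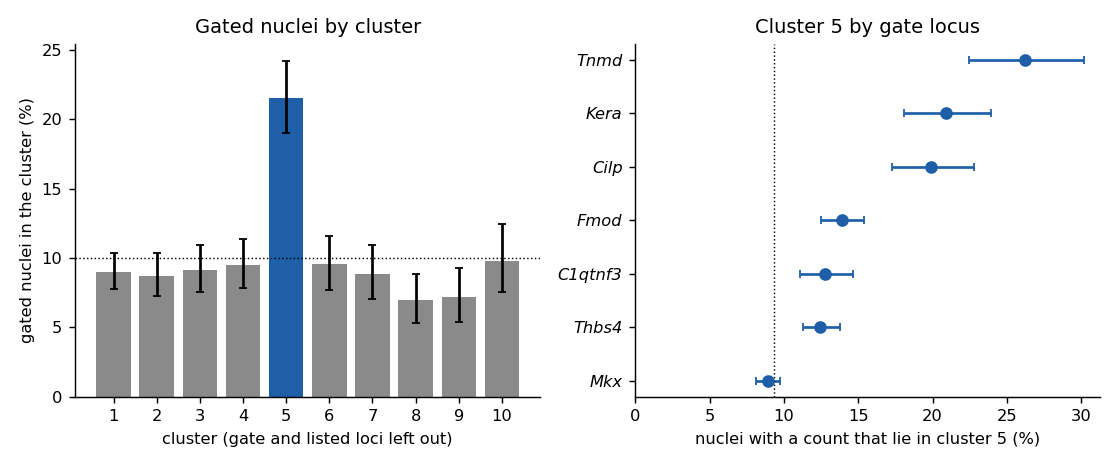
Left, share of nuclei (%) in each of 10 clusters that were gated, with exact 95% binomial intervals and a dotted line at the share over all nuclei. Right, share (%) of the nuclei with a count at each gate locus that lay in cluster 5, with a dotted line at the share of all nuclei in it (9.36%). Cluster 5 stands at 21.5%, and Tnmd, Kera and Cilp lie farthest to the right.

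Cluster 5 was singled out because it held the largest share of nuclei gated on these loci, so its levels at them follow in part from that choice and are given as a description, gated nuclei included. The clustering itself had left out all gate and listed loci. Over all of its nuclei, Tnmd was 3.58-fold (2.95 to 4.32) as open as in the rest, at 19.6 and 5.47 CPM, Kera 2.71-fold (2.29 to 3.19) and Cilp 2.51-fold (2.13 to 2.95). Fmod stood at 1.77 (1.59 to 1.97), Thbs4 at 1.47 (1.33 to 1.62) and C1qtnf3 at 1.47 (1.27 to 1.69). Mkx stood at 0.931 (0.860 to 1.01) and Scx at 1.02 (0.879 to 1.18). Of nuclei with a Tnmd count, 26.2% (22.5 to 30.2) lay in cluster 5, against 8.91% (8.14 to 9.73) of those with an Mkx count and 9.36% of all nuclei. The Tnmd promoter peak shown above had 13.1 CPM in cluster 5 and 2.85 elsewhere, the Kera peak 18.4 and 5.07, and the Cilp promoter peak 18.1 and 5.93.

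Among the gated nuclei alone, those in cluster 5 differed from the 852 elsewhere at tendon genes outside the gate. Both sets had a median of 4 gate fragments, but they differed in other ways. Those inside had a median of 3 gate loci with a count, against 2, and 52.3% of counts in promoters, against 54.5%. This comparison was not weighted for promoter share. Of the 24 tendon matrix genes, 10 were past the fold upwards in the gated nuclei of cluster 5 and 2 downwards, beside 7.77% and 15.6% of all genes compared. Col22a1 stood at 55.4 CPM in gated nuclei of cluster 5 and 18.5 in gated nuclei elsewhere, a ratio of 2.99 (2.22 to 4.02). Scube2, a secreted epidermal growth factor repeat protein, stood at 1.62 (1.33 to 1.96), Abi3bp at 1.46 (1.24 to 1.73), Thbs2 at 1.45 (1.15 to 1.82), Col1a1 at 1.31 (1.13 to 1.52) and Col12a1 at 1.29 (1.13 to 1.47). Downwards were Col6a2 at 0.536 (0.308 to 0.881) and Comp at 0.779 (0.555 to 1.07). Of the 10 upwards, Col6a1, Ogn and Chodl had intervals that included 1. Of the genes named upwards, 3 were also higher in another cluster. Over all nuclei, Col22a1 stood at 2.17 in cluster 5 and 2.03 in cluster 6 over the rest, Abi3bp at 1.55 in cluster 5 and 1.96 in cluster 8, and Thbs2 at 1.34 in cluster 5 and 1.68 in cluster 2.

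The counts of the other lists in this comparison stand beside the same 7.77% of all genes past the fold upwards and 15.6% downwards. Of the 12 tendon regulators, 3 were past the fold upwards, Meox2 at 1.54 (1.28 to 1.86), Eya2 at 1.41 (1.21 to 1.63) and Eya1 at 1.299 (1.045 to 1.61), and none downwards. Over all nuclei, Eya1 was higher in cluster 3 (1.67) than in cluster 5 (1.37), and Eya2 in cluster 8 (1.54) than in cluster 5 (1.29). Scx stood at 0.848 (0.564 to 1.24). Of the 14 TGF-beta genes 3 were past the fold upwards, Ltbp2 at 1.60 (1.37 to 1.87), Tgfbr2 at 1.33 (1.12 to 1.57) and Tgfb3 at 1.29 (1.06 to 1.56), and 1 downwards. Of the 14 cartilage genes, Sox6 (1.64, 1.47 to 1.83), Col11a1 (1.29) and Sox5 (1.26) were past the fold upwards, and 2 were past it downwards, among them Col9a1, a cartilage collagen, at 0.590 (0.414 to 0.822). Of 10 dermal fibrogenic genes none was past it upwards and 5 were downwards, among them the Wnt targets Axin2 (0.649, 0.534 to 0.784) and Lef1 (0.765, 0.616 to 0.942). Of 10 fibrogenic genes, Fap, a fibroblast protease, was past it upwards at 1.67 (1.37 to 2.04) and 2 were downwards. Of 13 limb position genes, Meis1 (1.32) and Meis2 (1.26) were past it upwards, and Hoxd13 (0.668), Hoxa11 (0.712) and Hoxd9 (0.793) downwards. None of 11 FGF pathway genes was past it upwards and 2 were downwards, Etv4 at 0.735 (0.565 to 0.944) and Fgfr3, at the fold itself, with an interval of 0.592 to 1.06. The joint, bone, MP and pericyte lists each had none past it upwards and 1 downwards. The perineural and ubiquitous lists had none either way. Genes of excluded cell types were mixed, with 2 of 3 epithelial genes past it upwards (Trp63 1.33, Cdh1 1.36), 1 of 3 myogenic (Pax3 1.33), 1 of 2 blood (Ptprc 1.404) and 1 of 3 Schwann genes (Foxd3 1.67), and among 5 endothelial genes 1 upwards and 2 downwards (Pecam1 0.586, Tek 0.592). Their part in the differences at tendon genes was not tested.

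Nuclei of cluster 5 that were not gated also stood higher at these genes. In these 783 nuclei against the 8816 others elsewhere, Col22a1 stood at 1.96 (1.70 to 2.26), Ltbp2 at 1.53 (1.42 to 1.65) and Sox6 at 1.51 (1.43 to 1.59), and 10 of the 24 matrix genes were past the fold upwards, beside 3.87% of all genes. Outside cluster 5, Col22a1 stood at 1.01 (0.826 to 1.23) and Ltbp2 at 1.13 (1.04 to 1.23) in gated over other nuclei. Of 14472 genes, 35 (0.242%) were past the fold upwards there and 133 (0.919%) downwards, against 54 and 108 over all gated nuclei. None of the 24 matrix genes or 12 regulators was past it there.

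The distal regions were compared in the same way. Of the 387 regions higher in gated nuclei, 359 were at or above 1.5-fold in cluster 5 over other nuclei, beside 15.0% of all distal regions, and with gated nuclei left out 352 were, beside 15.1%. The Egfr intron region was 7.23-fold (6.14 to 8.50) as open in cluster 5 as in the rest, the Spry2 region 5.85-fold (4.93 to 6.93) and the Efnb2 region 5.55-fold (4.63 to 6.62). These peaks were among those that defined the clusters, so their levels in cluster 5 are a description. Outside the cluster, 104 of the 387 regions, chosen for being higher in these gated nuclei, were at or above 1.5-fold in gated over other nuclei, with a median of 1.38, beside 162 (0.711%) of all distal regions and a median of 1.02. The 3 regions, picked as the highest, stood at 1.68, 1.81 and 1.66.

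The share of gated nuclei in cluster 5 is given by the number of gate loci with a count as a description, since the rule used these counts and the cluster was picked by them. Gated nuclei with counts at 1 locus lay in it in 3.79% (1.24 to 8.62) of cases, those with 2 loci in 16.6% (13.1 to 20.6), with 3 in 25.2% (20.8 to 29.99) and with 4 or more in 30.5% (23.7 to 38.1). Their median depth rose as well, from 10120.5 to 16519 counts. Gates of the same size drawn on other lists took 9.93% (dermal fibrogenic) to 12.5% (pericyte) of the gated nuclei, with 11.4% (9.59 to 13.5) for cartilage loci, beside 10.7% for ubiquitous genes. Of the nuclei of cluster 5, the cartilage gate took 14.1% and the fibrogenic gate 12.2%, against 21.5% for the tendon gate. The ubiquitous gate took 6.91% and the dermal fibrogenic gate 4.71%, and the joint, bone, MP and pericyte gates 6.31% to 9.22%.

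The same rule was applied at E12.5 and E16.5, in libraries the E14.5 gate had not used, after thinning nuclei of all stages to 4000 fragment equivalents. Stage, library, the dissected segment at E16.5 and the digestion, which differed between E12.5 and the later stages, cannot be told apart. Thinned scores are small whole numbers, so tied nuclei at the threshold were taken in file order. Of 7 left-out loci, 5 were past the fold upwards in the oldest library, 2 in the middle and 1 in the youngest. From the oldest stage to the youngest, Kera stood at 2.17 (1.65 to 2.82), 1.05 (0.756 to 1.42) and 0.882 (0.411 to 1.69). For Tnmd the values were 1.92 (1.53 to 2.39), 1.34 (0.929 to 1.87) and 1.38 (0.793 to 2.29). Fmod had 1.37 (1.16 to 1.59) at E16.5, 1.08 at E14.5 and 0.893 at E12.5. Mkx stood at 1.08, 0.917 and 1.05, with intervals that included 1.

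In the same order, Scx stood at 1.47 (1.16 to 1.83), 0.915 (0.738 to 1.12) and 0.959 (0.805 to 1.13) in gated over other nuclei, and its level in other nuclei was 12.9, 24.8 and 114.8 CPM, although peaks were called in each library alone. Col22a1 had 1.66 (1.401 to 1.96), 1.17 (0.954 to 1.43) and 1.27 in the same order. Genes past the fold upwards made up 1.17% of those compared at E16.5, 0.251% at E14.5 and 1.26% of the 2463 compared at E12.5, where far fewer nuclei (3428) passed. Without thinning these shares were 3.12%, 0.373% and 1.35%, so E16.5 and E12.5 changed order. The unthinned left-out ratio of Tnmd at E16.5 was 2.90 (2.61 to 3.21), with 6 loci past the fold upwards and Mkx at 1.16 (1.099 to 1.22), and at E12.5 none was, with C1qtnf3 at 0.424 (0.168 to 0.888) and Mkx at 0.819 (0.704 to 0.949).

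**Figure D5:**
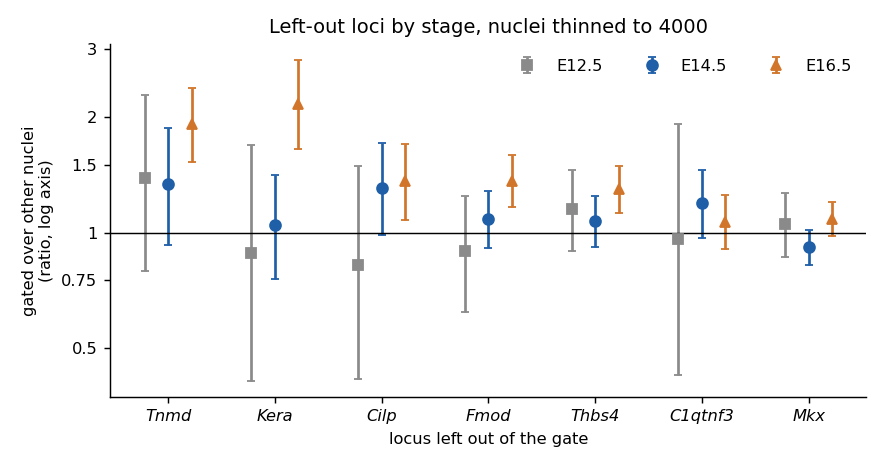
Ratio of accessibility in gated over other nuclei for each locus left out of the gate, on a log axis, at E12.5 (grey squares), E14.5 (blue circles) and E16.5 (orange triangles), after thinning to 4000 fragment equivalents, with exact 95% counting intervals. At E16.5 the intervals of Tnmd, Kera, Cilp, Fmod and Thbs4 lie above 1, and at E14.5 none does.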

How the data were processed

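Single-nucleus ATAC-seq counts were deposited by the authors as whole numbers of cut sites per peak and nucleus, not normalised, with peaks called in each library alone. The submitters' processing notes name bcl2fastq and Cell Ranger ATAC 1.1.0 with mm10, while the file headers give software 1.2.0 for the oldest library and 1.0.1 for the others. From the youngest stage to the oldest, libraries held 87048167, 204289151 and 413425059 counts. At E14.5 89.5% of entries were even, so cut sites were halved and rounded up per entry to fragment equivalents. Gene models were those of GENCODE vM21 basic on GRCm38, and sequences came from the RefSeq assembly of that build. A promoter was taken as the 1000 bp before a start site and the first 100 bp after it.

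Ratios carry exact conditional (Clopper-Pearson) intervals at 95%. With 1 library per stage no test was made, and nuclei were not treated as replicates. Ratios were checked on simulated counts and thinning on nuclei of the E14.5 library. The gate was only run on simulated nuclei with a set group of higher rate and no pass mark. That run does not show that the gate recovers a cell group in these data. No doublet caller was run, and the deepest 5% of nuclei were left out as an alternative. Latent semantic indexing used 89484 binarised peaks open in at least 1% of nuclei, with 29 of 30 components kept (correlation with log depth up to 0.5), and k-means had 10 starts. Clusters are given by number, since no cell annotation was used.

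The members, the 19 lists and the alternatives were chosen with earlier results of these data known, and some lists draw on markers the study names. Genes named were every measured gene of the tendon, TGF-beta and FGF lists, the highest and lowest of each other list, the 10 highest and 10 lowest outside them, and the 10 highest distal regions. A few genes and 1 region that this rule names are not reported here. Genes named within clusters were chosen after their values were seen. Computations used Python 3.11.15, NumPy 2.4.6, SciPy 1.17.1 and scikit-learn 1.9.0.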

Additional observations from a re-analysis of the deposited data

How the results depend on the processing

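Alternatives covered the gate, the depth minimum, the weighting, the filters and the clustering, and those without Mkx, on gate peaks outside promoters, without shared barcodes and all on left-out loci were chosen after seeing the data. The count of genes past the fold depended on the setting. Against 54 higher and 108 lower, the highest 5% gave 175 and 450, the highest 20% 11 and 13, weighting to depth and promoter share 29 and 62, centring on the median ratio 87 and 56, only peaks outside promoters 131 and 57, a minimum of 300 fragment equivalents 182 and 249, no minimum 352 and 419, and a fold of 1.5 0 and 1. Only the higher count moved by over 1.5 times with equal weighting (118), binarised entries (22), only promoter peaks (35), the gate without Mkx (86) and the gate on peaks outside promoters (31). Tendon matrix genes past the fold upwards numbered 2 with equal weighting or peaks outside promoters and 0 with a depth minimum of 12000, thinning, weighting to depth and promoter share or only promoter peaks, against 1, and TGF-beta genes 1 with the highest 5%, a depth minimum of 5000 or peaks outside promoters, against 0. Col22a1 fell to 0.862 with only promoter peaks, and Mrpl35 to 0.995 with equal weighting and 0.974 after thinning. Distal regions with at least 200 fragment equivalents numbered 2334 higher and 1901 lower. The neighbour ratio rose from 1.32 to 1.62 with equal weighting and fell to 1.13 after thinning. It was 1.53 without Mkx and 1.47 with the highest 5%, but 1.19 with the highest 20%. With a depth minimum of 5000, and with weighting to depth and promoter share, it was 1.26. The highest cluster share over the share of all nuclei, 1.21 at 7 clusters, was 2.15 at 10 clusters, 1.34 with equal weighting, 1.74 after thinning, 1.34 without Mkx and 1.096 on gate peaks outside promoters. Left-out ratios stayed within their counting intervals under 6 alternatives each, although Kera fell to 1.22 with the highest 5%, below the fold. In the comparison of stages, where nuclei of at least 4000 fragment equivalents were thinned, Kera at E14.5 fell below its interval to 1.05, and Tnmd and Cilp were past the fold. Without thinning 0 left-out loci were past the fold at E12.5, against 1. Of 1727 values of 110 genes under 16 settings, 1578 stayed within their counting interval, 146 moved beyond it and 3 changed side. No paired analysis was possible because each stage had 1 library. Depth limits every value, since a gated nucleus had a median of 4 gate fragments.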

Other observations

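The gate that weighted the 7 loci equally, and so leaned less on Mkx, shared 45.5% of its nuclei with the gate used above and took 293 of the 998 nuclei of cluster 5, 29.4%, against 215. A gate without Mkx took 250, 25.1%. Regions higher in gated nuclei were searched for short motifs on both strands in the 300 bases around their centres. CANNTG, the E-box core, was found in 91.0% of the 387 regions and in 83.0% of all 22782 distal regions, and CAGATG, a form of it, in 35.1% and 29.7%. CAGACA, a Smad-type motif, was found in 29.7% and 26.1%, ACAAAG, a Sox-type motif, in 23.5% and 21.8%, and TGANTCA, an AP-1 motif, in 8.79% and 10.7%. The 387 windows had a mean GC content of 44.5%, against 48.7%. A match is a run of letters and not a bound site.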
